A study of Mus musculus with 9 samples.

Results

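The endoplasmic reticulum (ER) luminal chaperones and lectins are 10 genes whose products fold secretory and membrane proteins: Hspa5, Hsp90b1, Hyou1, Calr, Canx, Sdf2l1, Manf, Creld2, Dnajb11 and Dnajc3. The members were chosen by name, with earlier results of these data known. The paper had already reported ER stress and protein folding pathways as activated by 2-DG. All 10 were found among the 55487 genes of the deposited gene table and among the 21049 genes that passed the filter on low counts. The RNA-seq libraries came from retinal explants of C57BL/6J mice, wild type and 28 days old (P28). All explants were kept for 48 h in Neurobasal-A medium with 5 mM glucose, either without inhibitor (control, 5 libraries) or with 2-DG at 20 mM (4 libraries), and a rinse and 1 h in Krebs' Ringer medium followed in both groups. 2-DG, or 2-deoxy-D-glucose, is a glucose analog that is taken up by cells and inhibits glycolysis. No genetic change was introduced in either group, the sclera and the retinal pigment epithelium had been removed before culture, and the labels place every library in batch 1. The titles call the libraries biological replicates and do not give the animals behind each. The comparison asked how each chaperone gene differed between explants with and without 2-DG. The paper adds that 2-DG may have wider metabolic effects and that cell death was not measured.

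Secretory and membrane proteins enter the ER unfolded. There, Hsp70 and Hsp90 family chaperones bind exposed peptide, while the lectins calnexin and calreticulin bind trimmed glucose on N-linked glycans. When unfolded protein accumulates, membrane sensors of the unfolded protein response (UPR) activate transcription factors that raise the genes of this machinery. Photoreceptors make large amounts of the membrane glycoprotein rhodopsin and so depend on it.

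One sequence through which the UPR acts on such genes is the ER stress element, a CCAAT box and a CCACG box set apart by a fixed spacing, where NF-Y and Atf6 bind. Promoters running from 250 bases before to 50 bases after the RefSeq start site (GRCm38.p6) were at hand for 8 of the 10 members, all but Hyou1 and Manf. The letters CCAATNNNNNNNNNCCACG were searched on both strands and were present in 6 of the 8 promoters, against 0.119% of all 32851 promoters. Each match is shown in capitals in the direction of its gene's strand, with its flanks, because most of the member promoters searched hold this arrangement. The element is known from such genes, so its presence in the members is not an independent result. Reading the capitals from the other strand gives the searched letters for Calr, Creld2 and the second Hsp90b1 match.
Hspa5, chr2:34772010-34772058, plus strand: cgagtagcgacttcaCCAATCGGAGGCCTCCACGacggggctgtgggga
Hsp90b1, chr10:86705623-86705671, minus strand: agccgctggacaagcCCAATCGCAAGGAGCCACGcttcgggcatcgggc
Hsp90b1, chr10:86705518-86705566, minus strand: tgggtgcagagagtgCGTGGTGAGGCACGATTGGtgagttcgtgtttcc
Calr, chr8:84847060-84847108, minus strand: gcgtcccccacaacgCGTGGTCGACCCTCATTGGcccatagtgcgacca
Canx, chr11:50325785-50325833, minus strand: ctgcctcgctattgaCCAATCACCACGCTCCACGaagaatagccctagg
Creld2, chr15:88819505-88819553, plus strand: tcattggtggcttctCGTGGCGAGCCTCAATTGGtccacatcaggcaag
Dnajc3, chr14:118937812-118937860, plus strand: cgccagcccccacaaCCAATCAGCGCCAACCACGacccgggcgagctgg

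The match nearest to a RefSeq start site was that of Hspa5, which covered bases 65 to 47 upstream, and the farthest was the first match of Hsp90b1, which covered bases 212 to 194 upstream. Hsp90b1 was the member with 2 matches. The related element ATTGGNCCACG, which carries the boxes closer together and is called ERSE-II, was present in the promoter of Dnajb11, at bases 8 to 18 downstream of the start, and in 0.0365% of all promoters. It did not overlap a match of the longer element.
Dnajb11, chr16:22857843-22857872, plus strand: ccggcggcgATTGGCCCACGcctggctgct

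Sdf2l1 held neither arrangement in this window. The single boxes were common, with CCAAT in 37.4% and CCACG in 32.8% of all promoters, and each of the 8 member promoters held both. These are matches of letters and not measured binding sites.

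The libraries held between 11318087 and 51802230 estimated counts, so that 3 counts corresponded to 0.0556 to 0.255 counts per 1000000 (CPM, on library sizes scaled by the trimmed mean of M-values). Markers of rods, the most numerous cells of the mouse retina, were abundant in every library, at a summed 4665 to 40475 CPM in control and 7081 to 15137 CPM in 2-DG for 7 genes. Single libraries stood apart in composition. Control replicate 2 held the most rod transcripts and 481 CPM of the 4 cone markers, against 32.9 to 57.7 CPM in the other control libraries. 2-DG replicate 3 held 597 CPM of cone markers and 67.3 CPM of the 5 retinal pigment epithelium markers, against 14.0 CPM in 2-DG replicate 4 and at most 3.79 CPM in any other library. Transcripts of the mitochondrial genome took 3.63% to 10.7% of counts in control and 3.40% to 13.6% in 2-DG, with the highest shares in 2-DG replicate 4 (13.6%), control replicate 2 (10.7%) and control replicate 5 (9.97%). In bulk tissue a lower level of a transcript through fewer cells of a type cannot be told apart from one through less RNA per cell.

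All 10 members were higher in 2-DG than in control, by log2 fold changes of 0.66 (Canx) to 2.54 (Sdf2l1) with a median of 1.09. The median over all genes tested was -0.01, and 49.2% of all genes had a positive log2 fold change. For each of the 10, every 2-DG library lay above every control library, a pattern found for 1.52% of all genes tested and for 2.33% of the 11243 genes with a mean of at least 10 CPM. None of the 10 passed the threshold of an adjusted p of 0.05 in edgeR's quasi-likelihood test, and neither did any other gene (0% of genes called). At an unadjusted p under 0.05 edgeR called all 10 members, beside 2.42% of all genes in the same direction (509 higher and 1017 lower genes in total). DESeq2's Wald test called 284 genes past an adjusted p of 0.05, 8 of them members, and limma-voom with sample quality weights called 1222, 9 of them members. A log2 fold change of at least 1 was reached by 5 members and by 1.95% of all genes, and Hspa5 fell just short at 0.99994.

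**Figure D1:**
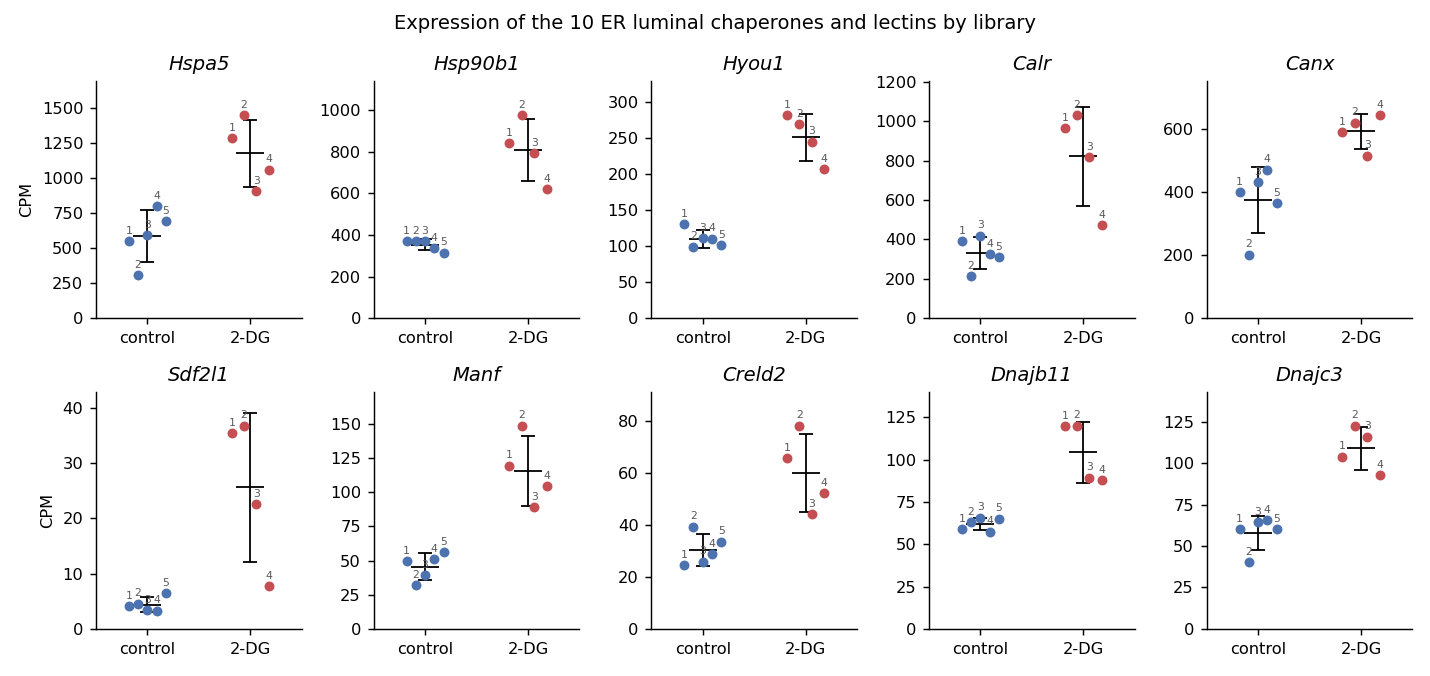
CPM (y axis, from 0) of each member gene in the 5 control (blue) and 4 2-DG (red) libraries, with the replicate number above each point and the mean ± SD as black bars. In each of the 10 panels the lowest 2-DG library lies above the highest control library, by a ratio of 1.09 for Canx (516 against 472 CPM) and of 1.18 for Sdf2l1 (7.72 against 6.53 CPM).

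Hspa5 (chr2:34771970-34777547, plus strand, GRCm38) encodes BiP, the Hsp70 of the ER lumen and the chaperone that restrains the UPR sensors. Its level was 548, 308, 591, 802 and 694 CPM in control replicates 1 to 5 and 1287, 1453, 908 and 1062 CPM in 2-DG replicates 1 to 4. The group means were 589 ± 185 CPM (SD, n = 5) and 1177 ± 241 CPM (SD, n = 4). Control replicate 2 was the lowest of all libraries and 2-DG replicate 2 the highest, and the groups did not overlap. This amounts to a log2 fold change of 1.00 ± 0.31 (SE, edgeR, adjusted p = 0.538).

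Hsp90b1 (chr10:86690209-86705509, minus strand) encodes Grp94, the Hsp90 of the ER. It was measured at 370.2, 371, 371, 339 and 316 CPM in the control libraries and at 843, 977, 793 and 620 CPM in the 2-DG libraries. The control libraries were nearly level, with a mean of 353 ± 25.1 CPM (SD, n = 5), and the lowest 2-DG library, replicate 4, still lay well above them. Between the groups the log2 fold change was 1.19 ± 0.22 (SE), with an adjusted p of 0.380 in edgeR.

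Hyou1 (chr9:44379490-44392369, plus strand) encodes Grp170, a large Hsp70-like protein that exchanges the nucleotide on BiP. It had the smallest unadjusted p of the members and was the gene with the fifth smallest over all genes tested. Control levels were 131, 99.4, 111, 111 and 101 CPM, and 2-DG levels were 282, 269, 245 and 207 CPM. The spread within each group was small beside the gap between the groups, at a log2 fold change of 1.18 ± 0.19 (SE, edgeR, adjusted p = 0.300).

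Calr (chr8:84841850-84846934, minus strand) encodes calreticulin, the soluble lectin of the ER lumen, which also stores calcium. Control levels were 390, 212, 420, 324 and 310 CPM, and 2-DG levels were 965, 1032, 817 and 472 CPM. 2-DG replicate 4 lay close to the control range, 2-DG replicates 1 to 3 well above it. edgeR put the log2 fold change at 1.31 ± 0.30 (SE), with an adjusted p of 0.510.

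Canx (chr11:50293961-50325673, minus strand) encodes calnexin, the membrane-bound lectin of the same cycle. It showed the smallest difference of the 10, with 400.4, 202, 433, 472 and 364 CPM in control and 589, 621, 516 and 645 CPM in 2-DG. Here 2-DG replicate 4 was the highest library, unlike for the soluble lectin. In edgeR its log2 fold change was 0.66 ± 0.27 (SE, adjusted p = 0.656). Canx was also the member whose unadjusted p rose above 0.05 when single libraries were left out, to as much as 0.0679 in the edgeR fit over all genes without 2-DG replicate 2.

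Sdf2l1 (chr16:17130138-17132383, minus strand) encodes a small luminal protein that works in a complex with the J-domain protein of Dnajb11. It was the least abundant member and showed the largest difference. Control libraries held 4.19, 4.58, 3.36, 3.29 and 6.53 CPM and 2-DG libraries 35.4, 36.8, 22.6 and 7.72 CPM. Replicates 1 to 3 of 2-DG lay several times above any control library, whereas replicate 4 exceeded the highest control library by little. Over all libraries edgeR gave 2.54 ± 0.44 (SE) on the log2 scale, with an adjusted p of 0.380. Without 2-DG replicate 4 the value was 2.84 and passed the threshold (edgeR, adjusted p = 0.0441), which no other member did when 1 library was left out.

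Manf (chr9:106838312-106891979, minus strand) encodes a luminal and secreted neurotrophic factor that binds BiP. Control levels were 49.3, 31.9, 39.4, 51.1 and 56.3 CPM, and 2-DG levels were 119.5, 149, 89.2 and 104 CPM. All 2-DG libraries exceeded the highest control library, replicate 5. Its difference on the log2 scale was 1.34 ± 0.23 (SE, edgeR, adjusted p = 0.380).

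Creld2 (chr15:88819646-88826683, plus strand) encodes an ER protein with EGF-like repeats. Control levels were 24.7, 39.4, 26.0, 28.8 and 33.6 CPM, and 2-DG levels were 65.8, 78.4, 44.4 and 52.3 CPM. Unlike for most members, control replicate 2 was here the highest control library, and it lay just below 2-DG replicate 3. The fitted log2 fold change was 0.98 ± 0.23 (SE, edgeR, adjusted p = 0.514).

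The remaining pair are J-domain co-chaperones that deliver clients to BiP. Dnajb11 (chr16:22857845-22879634, plus strand), also called ERdj3, was measured at 59.1, 63.1, 65.7, 57.5 and 65.1 CPM in control and at 119.8, 120.1, 89.3 and 88.1 CPM in 2-DG. The control libraries were again nearly level, and the 2-DG libraries formed a higher pair, replicates 1 and 2, and a lower pair, replicates 3 and 4. Its estimate on the log2 scale was 0.75 ± 0.18 (SE, edgeR, adjusted p = 0.514). Dnajc3 (chr14:118937976-118981697, plus strand) encodes p58IPK, which also inhibits the UPR sensor kinase Perk. It was measured at 60.0, 40.1, 64.2, 65.7 and 60.1 CPM in control and at 104, 123, 116 and 93.0 CPM in 2-DG. Control replicate 2 lay apart below the other control libraries, and the groups did not overlap. The estimate was 0.91 ± 0.20 on the log2 scale (SE, edgeR, adjusted p = 0.494).

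The order of the libraries was compared between members. 2-DG replicate 2 was the highest of the 9 libraries for 8 members, 2-DG replicate 1 for Hyou1 and 2-DG replicate 4 for Canx. Within the control group, the highest library was spread over all 5 replicates and replicate 2 was the lowest for 6 members, and within the 2-DG group replicate 4 was the lowest for 6 and replicate 3 for the other 4. Averaged over the members after centring each gene, the log2 CPM profile was -0.46, -0.81, -0.49, -0.45 and -0.40 in control replicates 1 to 5 and 0.83, 0.97, 0.52 and 0.29 in 2-DG replicates 1 to 4. As a share of all counts, the 10 genes together took 0.217%, 0.129%, 0.231%, 0.228% and 0.198% in control and 0.459%, 0.496%, 0.379% and 0.275% in 2-DG. That share also separated the groups, without any scaling between libraries.

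**Figure D2:**
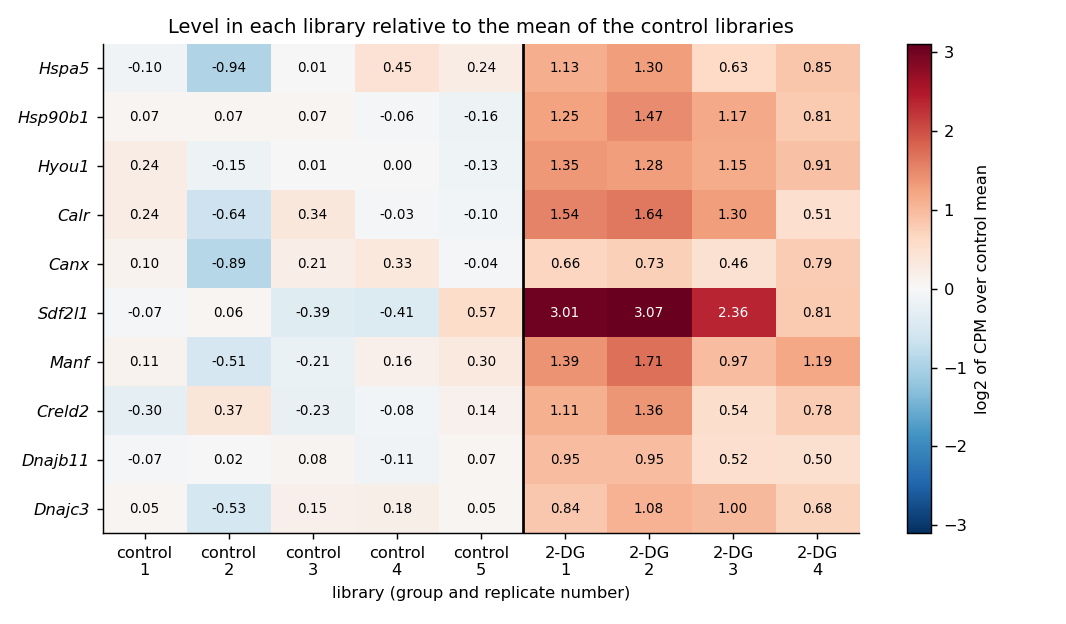
Log2 of each member's CPM in a library over its mean in the 5 control libraries (color and printed value), with genes in rows and libraries in columns. Every 2-DG cell is above 0, from 0.46 (Canx, replicate 3) to 3.07 (Sdf2l1, replicate 2), and control replicate 2 is the lowest control column for Hspa5, Hyou1, Calr, Canx, Manf and Dnajc3.

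The differences were recomputed without the libraries that stood apart in composition. Leaving out control replicate 2 lowered the log2 fold change of Hspa5 to 0.83, of Calr to 1.18 and of Canx to 0.50, while the median over the members was 1.12. Without control replicate 2 and 2-DG replicate 3 the median was 1.18. Without control replicate 2 and 2-DG replicate 4 it was 1.19, with 6 members past an adjusted p of 0.05 in edgeR (177 genes called over all). Both pairs were picked with the library levels already in view. 2-DG replicate 4 was the lowest 2-DG library for 6 members, and control replicate 2 the lowest control library for 6. The calls in that fit therefore cannot be separated from the choice of libraries. The 5 pigment epithelium markers summed to 1.99 to 3.79 CPM in control and to 0.849, 1.87, 67.3 and 14.0 CPM in 2-DG replicates 1 to 4. Of these markers, Rpe65 was at 0 in replicates 1 and 2 of both groups and Mlana in control replicate 2 and 2-DG replicate 1, while Ttr lay above 3 counts in every library and Best1 and Lrat lay above 0 in every library but under 3 counts in some (both in 2-DG replicate 1, Lrat also in control replicate 3). The 4 bipolar cell markers summed to 83.8 to 988 CPM in control and to 1511, 1418, 777 and 174 CPM in 2-DG replicates 1 to 4, and the mean level of the members was also highest in 2-DG replicates 1 and 2. Control replicates 1 and 3 held 988 and 923 CPM of these markers, more than 2-DG replicates 3 and 4. The centred member profile was lower in those control libraries (-0.46 and -0.49) than in 2-DG replicates 3 and 4 (0.52 and 0.29). Control replicate 5 was lowest in the bipolar markers (83.8 CPM) and the highest control library in the member profile (-0.40). The 4 Müller glia markers summed to 1360 to 5865 CPM in control and to 544 to 2311 CPM in 2-DG with overlapping groups, and the part of pigment epithelium, bipolar or glial content in the difference was not tested. On CPM of the plain library total the groups still did not overlap for 8 members, while for Calr and Sdf2l1 2-DG replicate 4 fell below the highest control library (386 against 456 CPM and 6.34 against 6.46 CPM).

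Levels were compared between genes only per kilobase of merged exons. In control, Hspa5 was highest at 139 ± 43.8 CPM per kb (SD, n = 5), followed by Calr at 115 ± 27.9, Hsp90b1 at 87.6 ± 6.23 and Canx at 79.7 ± 22.2. Neighbours in this group of 4 overlapped between libraries, and all lay above the remaining genes. Creld2, Dnajb11, Hyou1, Manf and Dnajc3 followed with means from 22.3 down to 11.3 CPM per kb, each neighbour again overlapping the next, and Sdf2l1 was last at 3.96 ± 1.19 CPM per kb, below every library of the others. In 2-DG, Calr (285 ± 86.8 CPM per kb, SD, n = 4) and Hspa5 (278 ± 56.9) were highest, with overlapping libraries, and Sdf2l1 averaged 23.1 ± 12.2, above Dnajc3 at 21.2 ± 2.55. Libraries of Sdf2l1 (6.97 to 33.2 CPM per kb) and Dnajc3 (18.1 to 23.8 CPM per kb) overlapped as well. Of the summed level per kb of the 10 genes, Calr took 22.6% in control and 26.0% in 2-DG, Canx 15.4% and 12.04%, and Sdf2l1 0.811% and 2.04%. Some ranks depended on the length used. Dividing each transcript by its own length gave Manf rank 5 and Creld2 rank 8 in both groups, and in 2-DG it put Hspa5 (469 CPM per kb) above Calr (438 CPM per kb).

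The transcript table separated the members into 43 annotated transcripts, of which 35 passed the filter. edgeR called 0 of them, and 0% of all 62900 transcripts tested, at an adjusted p of 0.05. At an unadjusted p under 0.05 it called 15 of the 35 as higher in 2-DG, beside 1.17% of all transcripts. For every member the most abundant coding transcript had 2-DG libraries that all lay above all control libraries, a pattern found for 0.898% of all transcripts. The smallest p among them was that of Hsp90b1-201, which averaged 345 ± 10.7 CPM (SD, n = 5) in control and 769 ± 81.0 CPM (SD, n = 4) in 2-DG. This is a log2 fold change of 1.15 ± 0.17 (SE, edgeR, adjusted p = 0.471). Sdf2l1, Creld2 and Dnajc3 had 1 transcript each.

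Minor transcripts were compared as well. Hyou1-206, a second coding transcript, was measured at 4.23, 11.3, 11.8, 9.05 and 3.93 CPM in control and at 41.9, 31.1, 37.0 and 13.1 CPM in 2-DG, without overlap. Its share of the gene averaged 7.35% in control and 12.2% in 2-DG, and that of the main transcript Hyou1-201 84.8% and 78.5%, with overlapping groups for both shares. Calr-204, a transcript with a retained intron, averaged 38.9 ± 16.9 CPM (SD, n = 5) and 99.96 ± 33.4 CPM (SD, n = 4), close to its gene in relative size. The share of Dnajb11-203 in its gene was lower in every 2-DG library (1.63% to 2.87%) than in every control library (2.99% to 4.50%), while its own level was 2.24 ± 0.41 CPM (SD, n = 5) in control and 2.02 ± 0.55 CPM (SD, n = 4) in 2-DG. The share of counts on coding transcripts overlapped between the groups for the 6 members that have a noncoding transcript. How reads were divided between transcripts carries an error that the deposited counts do not hold.

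Relatives of the members outside the set, most of them cytosolic or mitochondrial, were listed beside them, 19 genes in all, of which 18 passed the filter. Among these, 8 were higher and 10 lower in 2-DG with a median log2 fold change of -0.06, and 0 had groups that did not overlap, where 1.52% of all genes lay above and 1.41% below in this way. At an unadjusted p under 0.05 edgeR called 4 of the 18, all lower in 2-DG, beside 4.83% of all genes in that direction, and at the adjusted threshold 0. They were the stress-inducible cytosolic chaperones Hspa1a (log2 fold change -3.70, standard error 1.13), Hspa1b (-3.22 ± 1.07, SE), Hsph1 (-1.14 ± 0.42, SE) and Hsp90aa1 (-0.83 ± 0.37, SE). Hspa1a ranged from 262 to 6213 CPM in control and from 19.6 to 359 CPM in 2-DG, and its reads can be shared with its near copy Hspa1b. The constitutive cytosolic Hsp70 Hspa8 (0.32 ± 0.28, SE), the mitochondrial Hsp70 Hspa9 (0.30 ± 0.42, SE), the cytosolic Hsp90 Hsp90ab1 (0.35 ± 0.40, SE) and the mitochondrial Hsp90 Trap1 (0.12 ± 0.18, SE) had log2 fold changes within 1.5 standard errors of 0. The other tested relatives were Hspa4, Hspa4l, Sdf2, Cdnf, Creld1, Clgn, Calr3, Dnajb1, Dnaja1 and Dnajc7, with log2 fold changes from -0.94 (Dnajb1) to 0.61 (Clgn). Neither cytosolic nor mitochondrial among them are Sdf2 (-0.05 ± 0.18, SE), Cdnf (-0.87 ± 0.41, SE) and Creld1 (-0.14 ± 0.44, SE). The same holds for Clgn (0.61 ± 0.71, SE) and Calr3 (-0.71 ± 0.39, SE), so the list does not set the ER against other compartments. Calr4 did not pass the filter.

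**Figure D3:**
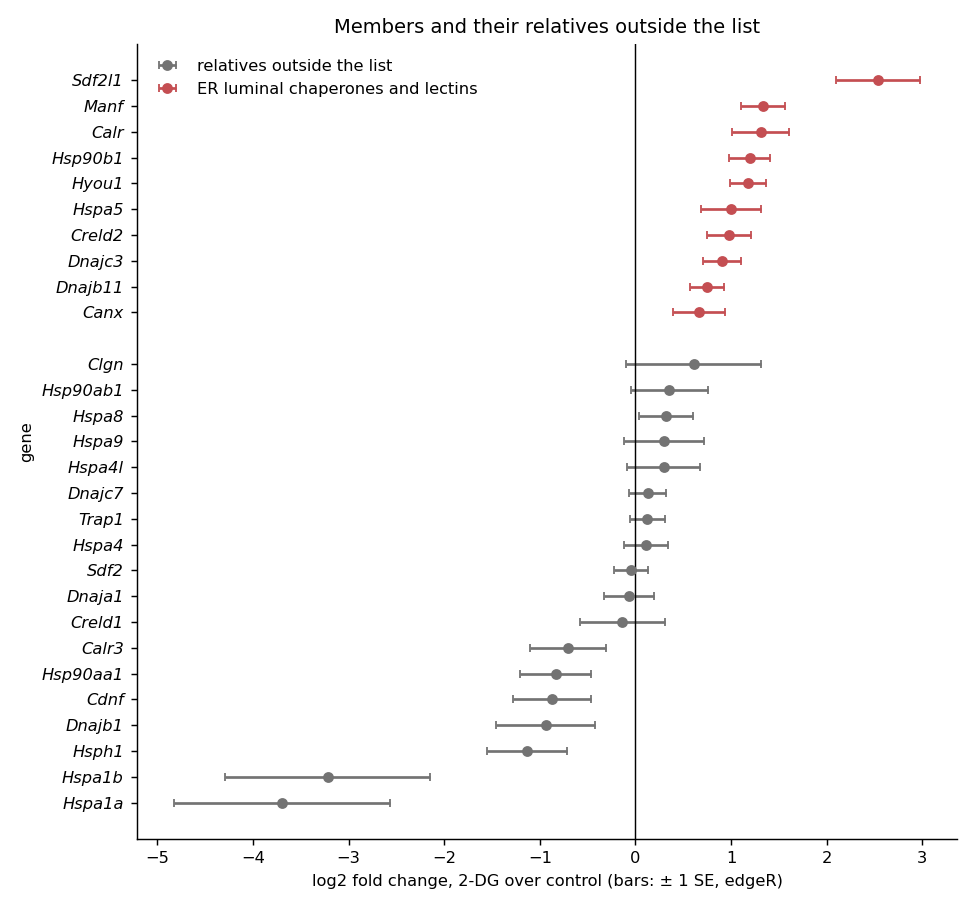
Log2 fold change of 2-DG over control (x axis, points) with ± 1 standard error (bars) from edgeR for the 10 members (red) and the 18 tested relatives outside the set (grey). The members run from 0.66 (Canx) to 2.54 (Sdf2l1), and the relatives from -3.70 (Hspa1a) to 0.61 (Clgn).

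Ratios within a library do not depend on the scaling between libraries. Sdf2l1 over its close relative Sdf2 had log2 ratios of -3.51, -3.75, -3.96, -4.07 and -3.11 in control and of -0.39, -0.44, -1.14 and -3.09 in 2-DG. The groups did not overlap, though 2-DG replicate 4 lay beside the control libraries. Manf over its relative Cdnf likewise separated the groups, with 1.38 to 2.67 in control and 3.47 to 5.07 in 2-DG, where Cdnf itself had a log2 fold change of -0.87 ± 0.41 (SE). Hspa5 over Hspa8 overlapped in 1 control and 1 2-DG library, with -1.56 to -0.99 in control and -1.05 to -0.23 in 2-DG. Hsp90b1 over Hsp90ab1 lay at -0.17, -0.0046 and -0.41 in 2-DG replicates 1 to 3, above all control libraries, and at -2.14 in replicate 4. The ratio of the lectins, Canx over Calr, was -0.71, -0.73 and -0.66 in 2-DG replicates 1 to 3, below all control libraries (-0.07 to 0.54), and 0.45 in replicate 4. Creld2 over Creld1 overlapped between the groups. 2-DG replicate 4 was the lowest 2-DG library in 4 of the 6 ratios, those of Hspa5, Hsp90b1, Sdf2l1 and Manf, and the highest for Canx over Calr.

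**Figure D4:**
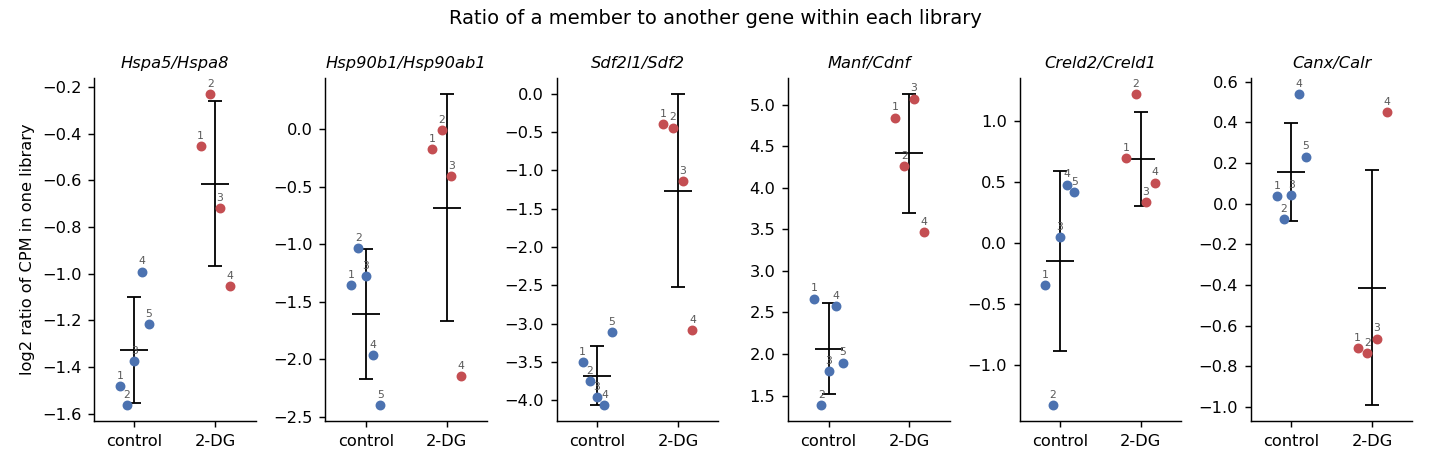
Log2 ratio of CPM within 1 library (y axis, a separate range in each panel) for 6 pairs of genes, with control libraries in blue, 2-DG libraries in red, replicate numbers above the points and mean ± SD as black bars. Sdf2l1 over Sdf2 and Manf over Cdnf do not overlap between the groups, and 2-DG replicate 4 lies apart from the other 2-DG libraries for Hsp90b1 over Hsp90ab1 (-2.14) and Canx over Calr (0.45).

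Other genes of the folding machinery were described by 6 further lists, none of which held a gene past the adjusted threshold in edgeR. Their counts stand beside 49.2% of all genes with a positive log2 fold change, 2.42% higher at an unadjusted p under 0.05 and 1.52% with all 2-DG libraries above all control libraries. Of 18 disulfide isomerases and oxidases, 16 were higher in 2-DG, 6 at an unadjusted p under 0.05 and 6 without overlap, with a median log2 fold change of 0.37. Pdia4, an isomerase with several thioredoxin domains, had the smallest p of all genes tested, at 48.9, 38.5, 52.7, 42.2 and 45.7 CPM in control and 157, 188, 144 and 103 CPM in 2-DG. The log2 fold change of Pdia4 was 1.70 ± 0.21 (SE, edgeR, adjusted p = 0.181). Pdia6, which attenuates the UPR sensor Ire1, had a log2 fold change of 1.02 ± 0.20 (SE) and P4hb, the isomerase PDI, one of 0.89 ± 0.20 (SE). The 12 calnexin cycle enzymes included 11 higher genes, 4 of them at an unadjusted p under 0.05 and 3 without overlap, with a median of 0.43. Their smallest p was that of Pdia3, the isomerase that partners calnexin and calreticulin, at 1.20 ± 0.25 (SE), followed by Prkcsh, the glucosidase II beta subunit, at 0.50 ± 0.18 (SE) and Uggt1, the glycoprotein folding sensor, at 0.56 ± 0.21 (SE).

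BiP partners and regulators numbered 15, of which 14 were higher in 2-DG, 3 at an unadjusted p under 0.05 and 2 without overlap, with a median of 0.43. Those 3 were Ppib, a prolyl isomerase, at 0.56 ± 0.19 (SE), Selenos, a membrane selenoprotein, at 0.53 ± 0.18 (SE) and Ficd, which modifies BiP with AMP, at 0.66 ± 0.23 (SE). Of 12 genes of ER-associated degradation, 11 were higher, 5 at an unadjusted p under 0.05 and 1 without overlap, with a median of 0.38. The lectin Os9 had 0.63 ± 0.18 (SE), Sel1l, the scaffold of the retrotranslocation ligase, 0.74 ± 0.28 (SE), and Derl3, a channel component with a mean of only 0.916 CPM in control, 1.72 ± 0.73 (SE). Derl3 was at 4.16, 6.41, 0.889 and 0.543 CPM in 2-DG replicates 1 to 4 and at 0.422 to 1.30 CPM in control, with overlapping groups. The 3 receptors that return KDEL-tagged luminal proteins to the ER, Kdelr1 (0.40 ± 0.16, SE), Kdelr2 (0.54 ± 0.26, SE) and Kdelr3 (0.30 ± 0.35, SE), were higher, with 1 at an unadjusted p under 0.05 (Kdelr1), the same gene being the 1 without overlap.

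The sensors and transcription factors of the UPR had the smallest median of these 6 lists. Of 17 genes, 14 were higher in 2-DG, 0 had an unadjusted p under 0.05 in edgeR and 1 (Xbp1) had groups that did not overlap, with a median of 0.14. For 17 genes these 2 counts lie near the shares over all genes, 2.42% and 1.52%. Xbp1, which encodes the factor whose messenger is spliced by Ire1, was measured at 113, 91.1, 119.9, 111 and 79.7 CPM in control and at 147, 142, 122 and 133 CPM in 2-DG, a log2 fold change of 0.40 ± 0.19 (SE). Mbtps1, the first protease that cleaves Atf6, had 0.33 ± 0.21 (SE), and Nfyb, a subunit of NF-Y, -0.33 ± 0.22 (SE). Gene counts do not show splicing of Xbp1 or cleavage of Atf6.

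**Figure D5:**
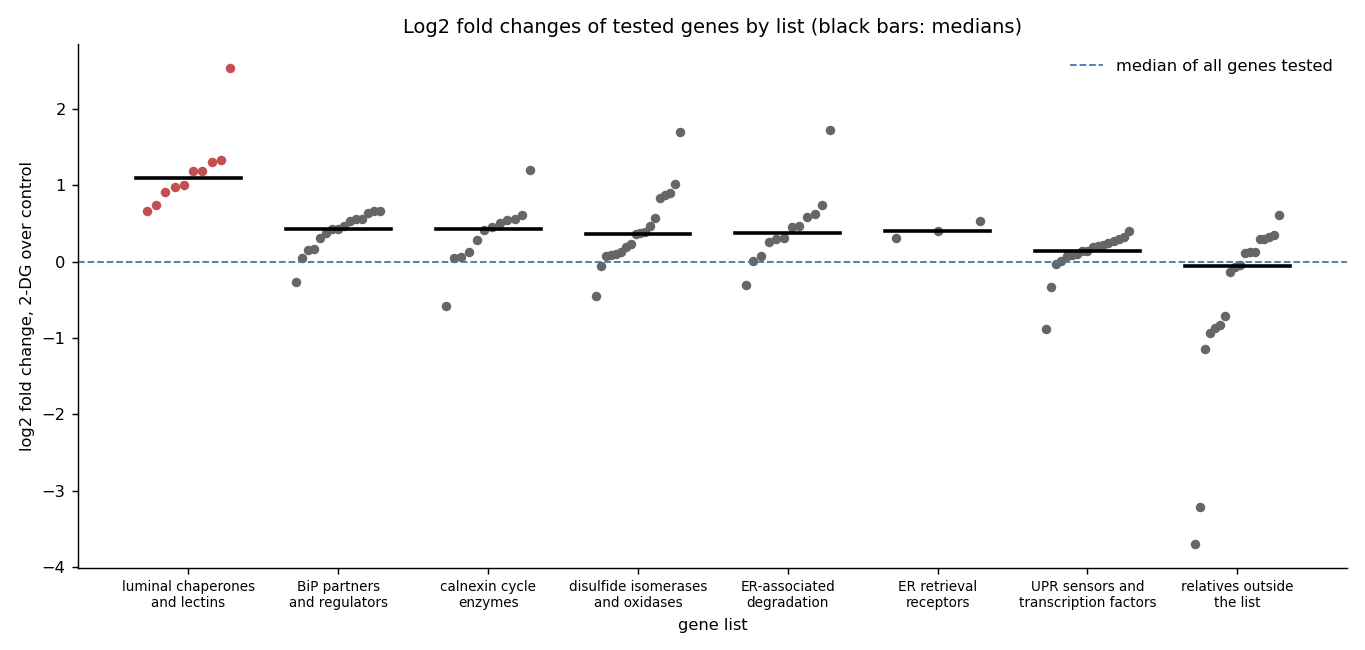
Log2 fold change of 2-DG over control (y axis) for each tested gene of the 10 members (red) and of 7 further lists (grey), spread sideways in order of value, with the median of each list as a black bar and the median of all genes tested as a dashed line. Medians are 1.09 for the members, between 0.37 and 0.43 for the 5 other folding, degradation and retrieval lists, 0.14 for the UPR sensors and factors, and -0.06 for the relatives outside the set.

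The 5 genes outside the set whose centred log2 CPM lay closest to the mean profile of the members over the 9 libraries, by root-mean-square difference among 11225 genes compared, were Pdia6 (0.150), Pdia3 (0.157), Gpt2 (0.164), Ddost (0.246) and Hsd17b4 (0.249). Of the members themselves, each of which is a part of that mean, Hyou1 (0.143), Hsp90b1 (0.168), Manf (0.193), Dnajc3 (0.205) and Calr (0.243) lay within the range of these 5 genes or closer. Dnajb11 (0.260), Hspa5 (0.282), Creld2 (0.310), Canx (0.376) and Sdf2l1 (0.784) lay farther away than all 5. Ddost is a subunit of the enzyme that adds N-linked glycans, Gpt2 a mitochondrial aminotransferase and Hsd17b4 a peroxisomal enzyme. Gpt2 was measured at 14.7 ± 3.18 CPM (SD, n = 5) in control and 34.5 ± 4.90 CPM (SD, n = 4) in 2-DG.

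The promoter letters shown above were also read against all genes, a comparison chosen after the values of the members had been seen. Besides the 6 members, 31 genes held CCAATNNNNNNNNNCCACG in a promoter, and 15 of them passed the filter. Of these 15, 10 were higher and 5 lower in 2-DG with a median log2 fold change of 0.12, and 2 were higher at an unadjusted p under 0.05 in edgeR (Pdia6 and Derl3), with 1 of the 15 (Pdia6) without overlap, beside 2.42% and 1.52% of all genes. Derl3, at a mean of 0.916 CPM in control, lay above all control libraries in 2 of 4 2-DG libraries. The ubiquitin ligase gene Syvn1 (0.26 ± 0.21, SE), the RNA-binding protein gene Hnrnpa3 (0.23 ± 0.20, SE) and the mannosyltransferase gene Alg12 (0.06 ± 0.23, SE) held the letters as well. Against the same shares over all genes, for ATTGGNCCACG 9 genes other than Dnajb11 passed the filter, 6 higher and 3 lower with a median of 0.19. Of these 9, 2 were higher at an unadjusted p under 0.05, Nucb1, a calcium-binding protein of the secretory pathway, at 1.06 ± 0.23 (SE) and without overlap, and Herpud1, a degradation component, at 0.59 ± 0.26 (SE).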

How the data were processed

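Total RNA of 9 retinal explant libraries (5 control, 4 2-DG, grouped by title and treatment label, although the culture text shared by all samples names 2-DG) had been made into stranded libraries from 4 ng of RNA with 13 PCR cycles and sequenced as 101-base pairs. The authors deposited estimated counts per gene and per transcript, not scaled between libraries. The submitters' processing notes name kallisto and GRCm38, and whether strand was used in counting is not given in the sources used here. A deposited CPM table, held as a score because its columns sum to more than 1000000, served 1 alternative only, and the authors' comparison table of fold changes and p-values was not used. Estimated counts were rounded and tested with edgeR 4.0.16 in R 4.3.3 (filterByExpr, TMM, glmQLFit with legacy=TRUE, glmQLFTest, group as the only term), with Benjamini-Hochberg adjustment over all 21049 genes or 62900 transcripts kept. The standard error was the log2 fold change over the square root of F. The code was tested on simulated data. Alternatives were other scalings, no filter, DESeq2 1.42.0, limma-voom 3.58.1, a replicate block and leaving out libraries. The fits without control replicate 2 and 2-DG replicate 3 or 4 were chosen after seeing the data. The members and lists were chosen with earlier results of these data known. Named were all members, relatives and retrieval receptors, the 3 smallest p of each other list and the 5 genes closest in profile. Genes named for their promoter letters were chosen after their values were seen. Symbols and promoters came from RefSeq (GRCm38.p6), exon lengths from GENCODE M21. Reads carry no molecular identifiers here, and limits from counts cover counting error only.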

Additional observations from a re-analysis of the deposited data

Results flagged for a closer look

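Within each group, the highest or lowest library of every named gene (single cell type markers aside), ratio, main transcript and marker sum was compared with the others by Dixon's gap test, in 164 groups of 5 or 4 libraries. Chance flags about 1 in 20 such groups, and 14 were flagged. Among the members this concerned Dnajc3, which stood at 40.1 CPM in control replicate 2 against 60.0 to 65.7 CPM in the other control libraries. The same library was lowest for the cytosolic chaperones Hspa8 (910 CPM against 1530 to 1613), Hspa4 (125 CPM against 196 to 217) and Dnaja1 (110.3 CPM against 228 to 251), and highest for Trap1 (86.8 CPM against 61.7 to 66.7) and Creld1 (99.4 CPM against 20.7 to 31.5). It was also highest for the summed rod markers (40475 CPM against 4665 to 14068) and cone markers (481 CPM against 32.9 to 57.7).

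In 2-DG replicate 4, Hsp90ab1 was at 2736 CPM against 948 to 1052 CPM in the other 2-DG libraries, the log2 ratio of Canx over Calr was 0.45 against -0.73 to -0.66, and Kdelr1 was at 57.8 CPM against 50.8 to 51.6. In 2-DG replicate 3, Prkcsh was lowest at 92.6 CPM against 127 to 129.6, the cone markers were highest at 597 CPM against 29.4 to 72.9, and the microglia markers were highest at 39.5 CPM against 7.19 to 10.6. Whether these departures share a source was not tested.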

How the results depend on the processing

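Of 200 recomputed log2 fold changes of the 10 members, 0 turned negative and 24 reached the adjusted threshold that none reached in the reported fit. Canx was the member that rose above an unadjusted p of 0.05, in 5 settings. The number of members past the threshold was 8 under DESeq2, 9 under limma-voom with sample quality weights (median log2 fold change 1.26), 6 without control replicate 2 and 2-DG replicate 4, and 0 to 1 when 1 library was left out, with 7 member transcripts under DESeq2 (144 of all 62900) and 3 under limma-voom (10 of all). Over all genes 0, 284 (DESeq2), 1222 (limma-voom), 1 (edgeR legacy=FALSE), 16 (without control replicate 2), 2 (without 2-DG replicate 4) and 177 (without both of these) were called. The cause of these differences was not tested.

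Same-numbered libraries deviated from their group means with correlations of 0.451, -0.155, 0.102 and 0.205, so the replicate numbers were not taken as pairs. Replicates 1 and 4 correlated best with their own number, replicates 2 and 3 did not. With the replicate block, 0 genes and 0 members passed the threshold, all 10 members kept an unadjusted p under 0.05 at a median of 1.13, the relatives' median log2 fold change became 0.062, and 3 of 12 degradation genes and 2 of 18 relatives had an unadjusted p under 0.05, beside 6.42% of all genes in that fit.

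Counts at an unadjusted p under 0.05, in either direction, in the other lists (15 BiP partners, 12 calnexin cycle enzymes, 12 degradation genes, 3 receptors, 17 UPR genes and 18 relatives) are given with the share of all genes in the same fit, which was 7.25% in the reported fit. On plain library totals (7.93%) they fell to 2 calnexin cycle enzymes, 2 degradation genes and 0 retrieval receptors, with upper-quartile factors (7.60%) to 3 degradation genes and 0 receptors, and without the filter (7.08%) to 0 receptors. Under DESeq2 (10.3%) there was 1 UPR gene, and under limma-voom (26.0%) 7 BiP partners, 7 calnexin cycle enzymes, 6 UPR genes and 9 relatives. Over the fits that left out 1 library or the added pairs of libraries, where the share ran from 4.63% to 15.7%, the counts were 2 to 5 calnexin cycle enzymes, 1 to 5 degradation genes, 0 to 2 receptors, 0 to 2 UPR genes, 2 to 5 BiP partners and 2 to 7 relatives. Without control replicate 2 and 2-DG replicate 3 (9.19%) there were 5 BiP partners, and without control replicate 2 and 2-DG replicate 4 (15.7%) there were 5 BiP partners, 2 UPR genes, 0 receptors and 7 relatives. Medians over the same fits ran from -0.285 (without control replicate 2 and 2-DG replicate 4) to 0.039 (without control replicate 2 and 2-DG replicate 3) for the relatives and from -0.0020 (without control replicate 2 and 2-DG replicate 4) to 0.298 for the UPR genes. Among minor transcripts the log2 fold change turned for Hyou1-205 (-0.505 to 1.19), Hspa5-205 (-0.122 to 0.264), Manf-203 (-0.098 to 0.580) and Dnajb11-203 (-0.329 to 0.069). Levels near 3 counts, 0.0556 to 0.255 CPM, are not resolved.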
